A study of Mus musculus with 2 samples.

Results

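Rab proteins are small GTPases that mark the membranes of a cell: in the GTP-bound form a Rab sits on one kind of membrane and recruits motors, tethers and coat adaptors, and in the GDP-bound form it is taken off again. Exchange factors load GTP, GTPase-activating proteins trigger its hydrolysis, and GDP dissociation inhibitors carry the inactive protein through the cytosol. Neurons rely on this system to move cargo between Golgi, dendrites and axon, to recycle receptors and to deliver endosomes to lysosomes. The Rab3 proteins, the Rabs of synaptic vesicles, are used below only for comparison.

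The Rab genes were chosen by name, as all protein-coding genes called Rab followed by a number, without Rab3a, Rab3b, Rab3c and Rab3d, that had at least 1 read in each library. This gave 47 members of 14787 annotated genes with a read in each library, 13066 of them protein-coding. GENCODE M21, the annotation of the deposited models, holds 55 such Rab genes, and 8 were outside the set. Rab17, Rab19, Rab20, Rab25, Rab38 and Rab44 had 0 reads in each library, which allows up to 3.63 CPM (counts per 1000000 reads) in replicate 1 and 4.02 in replicate 2. Rab7b had 2 reads in replicate 1 and 0 in replicate 2, and Rab43 had 0 in replicate 1 and 6 in replicate 2.

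The samples form 1 group, hippocampus (a layer of it, per the labels) of female B6CASTF1/J mice aged 2 months, a first-generation cross of the C57BL/6J and CAST/EiJ strains, with no treatment in the labels. There are 2 libraries, called biological replicates 1 and 2, each begun with 2 µg of total RNA. Both carry the same donor record, and no label says that they are separate animals, so the spread between them may be technical. With 1 group there is no comparison of conditions: the values below are levels, isoforms and read structures of the Rab genes, and every p-value sets one library against the other.

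In long-read RNA sequencing a read can cover a whole cDNA, so a read is counted once whatever the length of its transcript. Levels are CPM, a gene's reads scaled to 1000000 reads after those on spike-in RNA are left out, from 826596 such reads in replicate 1 and 745492 in replicate 2, and 1 read is worth 1.21 and 1.34 CPM. Levels of different genes are compared on this scale without division by length, and whether long and short transcripts were recovered equally was not measured. All 5 pan-neuronal markers were present, at 194 to 1651 CPM, as were all 7 genes of the CA fields and dentate gyrus, and astrocyte, oligodendrocyte and microglial markers were each detected in both libraries. Of 5 choroid plexus markers, Otx2 and Aqp1 were at 0 in both libraries, and Kl and Folr1 had 8 reads or fewer. Ttr, with 271 reads (replicate 1) against 131 (replicate 2), therefore held most of the list, which summed to 339 against 185 CPM. Blood markers came to 219 CPM (replicate 1) against 339 (replicate 2), and endothelial markers to 269 against 207. Most of the endothelial list was Cldn5, with 191 reads (replicate 1) against 126 (replicate 2). Pecam1, Kdr, Flt1 and Tek had 9 reads or fewer each in both libraries. The cause of these differences was not tested. This is bulk tissue, in which the cell that a Rab read came from is unknown, and fewer cells of a type and less RNA per cell cannot be told apart.

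Exon sequences are shown here because the isoforms of Rab6a and Rab28 described below turn on them. All are from the transcript sequences of GENCODE M21 on mm10, written 5′ to 3′ on the strand of the gene. The first pair are the alternative coding exons of Rab6a, at chr7:100629838-100629943 and chr7:100629666-100629771 on the plus strand, with capitals at the bases where they differ. The third is the matching exon of Rab6b, at chr9:103161064-103161169 on the plus strand, with capitals where it differs from the Rab6a-201 exon. The fourth is the exon that Rab28-203 adds, at chr5:41626987-41627081 on the minus strand, with its coding bases in capitals.
Rab6a-201 exon: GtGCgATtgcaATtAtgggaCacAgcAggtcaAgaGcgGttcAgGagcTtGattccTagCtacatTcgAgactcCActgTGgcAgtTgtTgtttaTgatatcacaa
Rab6a-202 exon: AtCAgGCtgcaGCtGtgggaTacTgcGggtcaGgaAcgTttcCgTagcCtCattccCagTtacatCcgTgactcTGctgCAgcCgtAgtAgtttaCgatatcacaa
Rab6b-201 exon: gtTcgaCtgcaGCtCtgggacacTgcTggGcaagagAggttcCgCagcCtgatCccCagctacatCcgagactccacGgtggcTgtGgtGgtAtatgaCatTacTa
Rab28-203 added exon: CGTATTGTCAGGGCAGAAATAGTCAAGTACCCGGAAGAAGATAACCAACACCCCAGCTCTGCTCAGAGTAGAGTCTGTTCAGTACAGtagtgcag

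The hippocampus held a broad set of Rab transcripts, led by Rab7, Rab6a, Rab2a, Rab14 and Rab15. The 47 genes together took 4362 reads in replicate 1 and 3824 in replicate 2, or 5203 ± 104 CPM (SD, n = 2). The 5 leading genes held 40.5% ± 0.45 of these reads and the 10 leading genes 63.6% ± 0.82 (SD, n = 2). A mean of at least 100 CPM was reached by 16 of 47 Rab genes, or 34.0%, against 14.5% of all protein-coding genes with a read in each library. The median Rab gene stood at 53.7 CPM, beside 24.2 CPM for the 13066 protein-coding genes. Of the Rab genes, 40 were at 10 CPM or more and 7 below it, so the family spanned from 502 CPM down to 1.28 CPM. For comparison, Rab3a alone stood at 1063 ± 12.4 CPM (SD, n = 2), above every other Rab gene, while Rab3b, Rab3c and Rab3d stood at 31.0, 36.3 and 20.3 CPM.

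**Figure D1:**
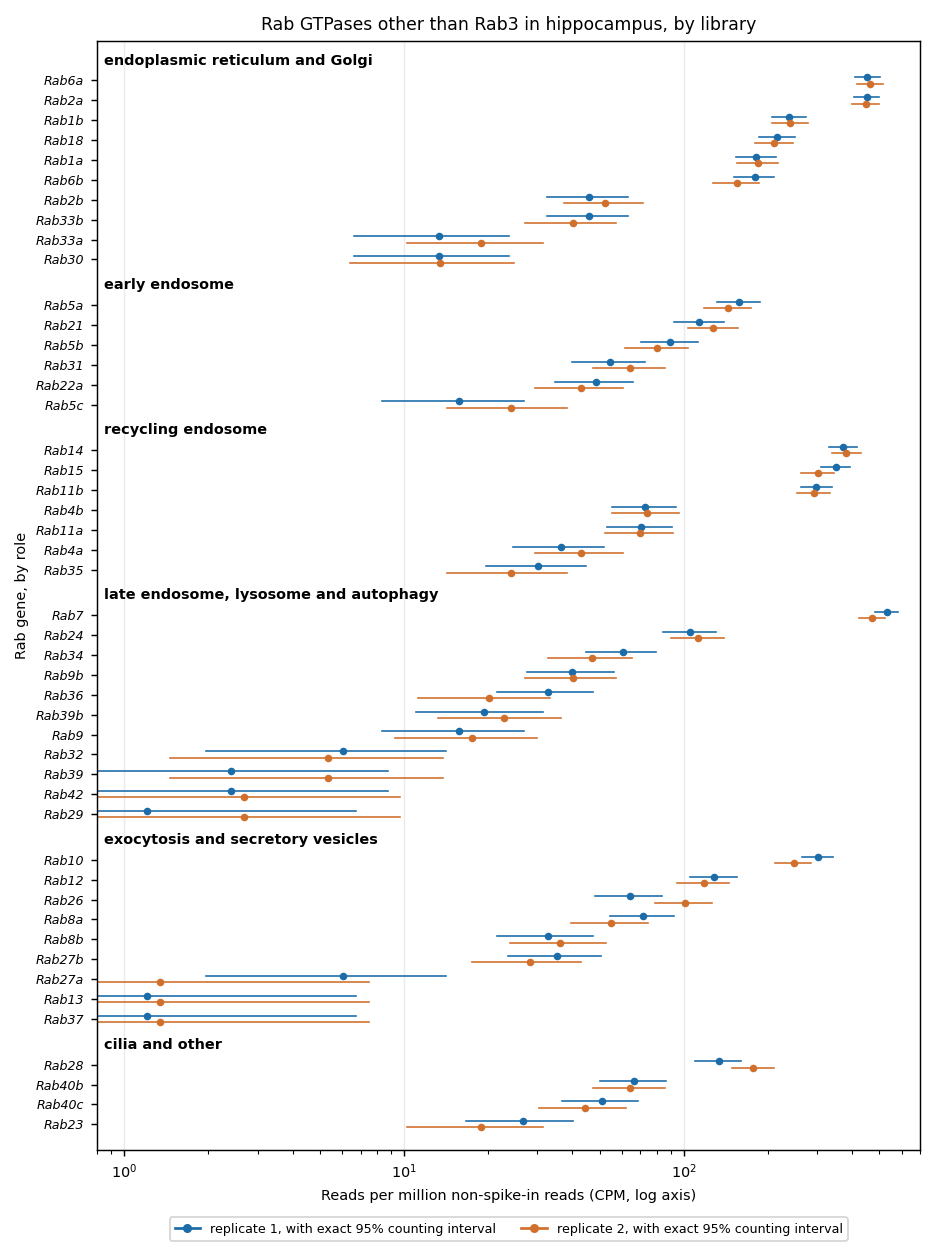
Level of each Rab gene in CPM (log axis), grouped by role, with one point per library and its exact 95% counting interval. Rab7, Rab6a and Rab2a sit farthest right at 448 to 502 CPM, and Rab13 and Rab37 farthest left at 1.28 CPM.

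Rabs of the endoplasmic reticulum and Golgi, 10 genes, formed the most abundant role group, with 1829 ± 8.68 CPM in sum and 35.2% of the Rab reads. Rab6a, which acts in transport at the Golgi and from it to the endoplasmic reticulum, had 374 reads in replicate 1 and 345 in replicate 2, or 452 and 463 CPM. Rab2a, a Rab of the step between endoplasmic reticulum and Golgi, had 372 and 333 reads, or 450 and 447 CPM. The counting intervals of these 2 genes overlapped in each library. Rab1b and Rab1a, which drive transport out of the endoplasmic reticulum, stood at 238 and 240 CPM (Rab1b) and at 181 and 184 CPM (Rab1a). Rab18, found on the endoplasmic reticulum and on lipid droplets, stood at 215 and 211 CPM. Rab6b, the paralog of Rab6a known as enriched in neurons, stood at 179 and 154 CPM, but most of its reads were unspliced, as described below. The remaining members of the group were lower: Rab2b had a mean of 49.1 CPM, Rab33b 43.1, Rab33a 16 and Rab30 13.4 CPM. All 10 were therefore above 10 CPM.

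Recycling Rabs, 7 genes, came next with 1205 ± 30.8 CPM in sum and 23.2% of the Rab reads. Rab14, which acts between Golgi and endosomes, had 307 reads in replicate 1 and 284 in replicate 2, or 371 and 381 CPM. Rab15, a Rab of early and recycling endosomes, had 288 and 224 reads, or 348 and 300 CPM. Rab11b, of the recycling endosome that returns receptors to dendritic membranes, had 246 and 217 reads, or 298 and 291 CPM. These genes held most of the group, and the others had means from 27.2 CPM (Rab35) through 39.6 (Rab4a) and 70.0 (Rab11a) to 73.2 CPM (Rab4b).

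Early endosome Rabs were less abundant, with 481 ± 2.71 CPM in sum over 6 genes. Rab5a, the regulator of early endosome fusion, stood at 157 CPM in replicate 1 and 144 in replicate 2, and Rab21, which acts in integrin endocytosis, at 114 and 127 CPM. The intervals of both genes overlapped in each library. Rab5b had a mean of 85.0 CPM, Rab31 59.4, Rab22a 45.7 and Rab5c 19.9 CPM, the lowest of the group.

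Rabs of late endosomes, lysosomes and autophagy held 782 ± 50 CPM over 11 genes, and most of it was Rab7. Rab7, which directs late endosomes to lysosomes, had 440 reads in replicate 1 and 351 in replicate 2, or 532 and 471 CPM, and ranked at number 171 of all protein-coding genes. Rab24, linked to autophagy, was the only other gene of the group above 100 CPM, at 105 and 113 CPM. Rab34, Rab9b, Rab36, Rab39b and Rab9 had means of 53.7, 40.1, 26.4, 21.1 and 16.6 CPM. The other 4 were below 10 CPM: Rab32 had 5 and 4 reads, Rab39 had 2 and 4, Rab42 had 2 and 2, and Rab29, which recruits the kinase LRRK2 to membranes, had 1 and 2. The median of this group was 21.1 CPM, against 175 CPM in the Golgi group.

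Rabs of exocytosis and secretory vesicles held 615 ± 37.0 CPM over 9 genes. Rab10, which delivers membrane to the growing axon and is a substrate of LRRK2, had 249 reads in replicate 1 and 184 in replicate 2, or 301 and 247 CPM. Rab12, another substrate of LRRK2, stood at 128 and 118 CPM. Rab26, a Rab of secretory granules and synaptic vesicles, stood at 64.1 and 101 CPM. Rab8a, Rab8b and Rab27b had means of 63.2, 34.4 and 31.6 CPM. At the low end, Rab27a had 5 reads and 1 read, and Rab13, a Rab of epithelial junctions, and Rab37 had 1 read in each library.

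The last 4 genes were Rab28, Rab40b, Rab40c and Rab23. Rab28, known from cilia and photoreceptors, led them with 110 reads in replicate 1 and 132 in replicate 2, or 133 and 177 CPM. Rab40b and Rab40c, which carry a SOCS box that binds a ubiquitin ligase, had means of 65.5 and 47.5 CPM. Rab23, a negative regulator of Hedgehog signalling, was lowest at 22.7 CPM.

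In every pair of close paralogs compared, the same copy had more reads in both libraries when all reads were counted. Rab11b had 4.24 times the reads of Rab11a in replicate 1 and 4.17 times in replicate 2, and Rab2a had 9.79 and 8.54 times those of Rab2b. Rab1a had 0.761 and 0.765 times the reads of Rab1b, and Rab4a 0.50 and 0.582 times those of Rab4b. Rab5a had 1.76 and 1.78 times the reads of Rab5b and 10 and 5.94 times those of Rab5c, and Rab9 0.394 and 0.433 times those of Rab9b. Rab8a had 2.19 and 1.52 times the reads of Rab8b, Rab33b 3.45 and 2.14 times those of Rab33a, and Rab40b 1.31 and 1.45 times those of Rab40c. Rab22a had 0.889 and 0.667 times the reads of Rab31, but over reads with a full intron chain the ratios were 1.59 and 0.794, so that the leading copy differed between the libraries. Rab39b had 8 and 4.25 times the reads of Rab39, and Rab27b 5.80 and 21 times those of Rab27a, which rest on 6 reads or fewer of the lower copy. The closest pair by coding sequence, Rab6a and Rab6b, shared 78.4% of aligned coding bases, followed by Rab8a and Rab8b at 77.4%, Rab1a and Rab1b at 77.2%, Rab5b and Rab5c at 76.5%, and Rab11a and Rab11b at 75.1%. How reads that could match 2 paralogs were placed is not given in the sources.

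No Rab gene was called different between the 2 libraries. At a Benjamini-Hochberg adjusted p under 0.05 in exact binomial tests and at least a 2-fold ratio, 0 of 40 Rab genes with at least 20 reads differed between the libraries, beside 28 of 9062 genes in all, or 0.309%. Log2 ratios of replicate 2 over replicate 1 ran from -0.68 for Rab36 to 0.65 for Rab26, 19 above and 21 below 0. The median size of the log2 ratio, sign aside, was 0.17 for the 40 Rab genes and 0.24 for the 9062 genes. These sets were not matched for depth, on which the size of such a ratio depends. An unadjusted p under 0.05 was found for 3 of 40 Rab genes, 7.50%, which is close to the 7.42% of all 9062 genes. Rab26 had 75 reads in replicate 2 and 53 in replicate 1, a log2 ratio of 0.65 (exact binomial p = 0.013, adjusted p = 0.472). Rab28 had 132 reads in replicate 2 and 110 in replicate 1 (log2 ratio 0.41, adjusted p = 0.575 in the exact binomial test), and Rab10 had 184 in replicate 2 and 249 in replicate 1 (log2 ratio -0.29, adjusted p = 0.648 in the same test). A p that misses the threshold does not show that these levels were equal. When models deposited as genomic were left out, 1 of 38 Rab genes passed, beside 59 of 8306 genes, or 0.710%. It was Rab6b, with 18 reads in replicate 2 and 146 in replicate 1 (log2 ratio -2.84), since 97 of its reads carry that label in replicate 2 and 2 in replicate 1.

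**Figure D2:**
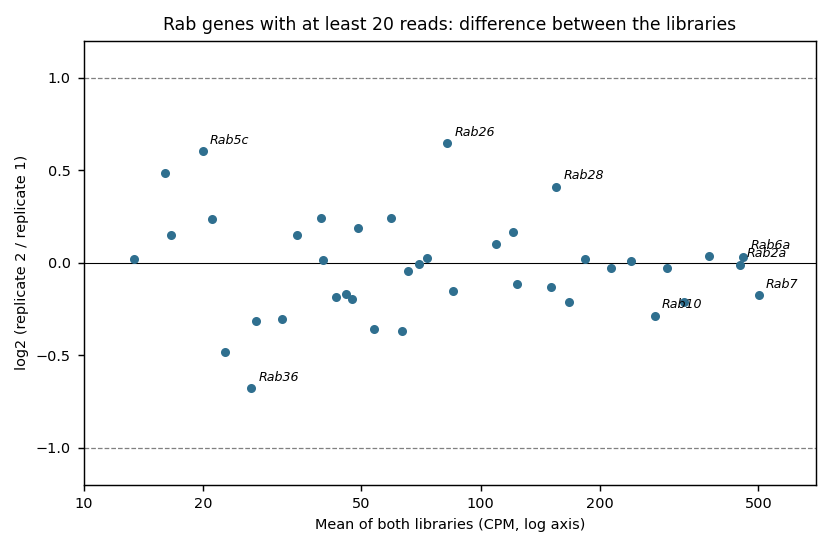
Log2 ratio of replicate 2 over replicate 1 (vertical axis) against the mean level in CPM (log axis) for the 40 Rab genes with at least 20 reads, one point a gene. Dashed lines mark a 2-fold ratio; all points lie between them, from -0.68 for Rab36 to 0.65 for Rab26.

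Most Rab reads covered a complete annotated chain of introns, and Rab6b had the lowest share of such reads among Rab genes at 10 CPM or more. Among these, annotated chains also held under 50% in each library in Rab34 (28.0% in replicate 1 and 25.7% in replicate 2), Rab36 (44.4% and 26.7%) and Rab26 (43.4% and 49.3%). Over all 47 genes, 83.0% ± 0.56 of reads matched an annotated chain, 4.79% ± 0.51 a full chain not in the annotation, 2.86% ± 0.02 part of a chain, 8.48% ± 0.06 were single-exon models inside the last exon and 0.915% ± 0.04 single-exon models elsewhere (SD, n = 2). Of Rab6b, 113 of 148 reads in replicate 1 and 95 of 115 in replicate 2 were single-exon models inside the last exon, 76.4% and 82.6%. That exon, at chr9:103181182-103185276, has 4095 bases, nearly all after the stop codon. Only 30 and 18 reads of Rab6b spanned all introns, so its ratio to Rab6a depended on the reads counted. Rab6a had 2.53 and 3.00 times the reads of Rab6b over all reads, and 11.1 and 16.2 times over reads with a full intron chain. Rab6b was 1 of 40 Rab genes, and the only one, with at least 50% of its reads in single-exon models in each library, 2.5%, beside 5.94% of 8770 protein-coding genes with 20 reads or more. The median single-exon share was 6.55% for these 40 Rab genes and 6.57% for the 8770 genes. For the other kinds of reads no value over all genes is given here. Without Rab6b, 6.14% ± 0.13 of Rab reads were of the last-exon kind.

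**Figure D3:**
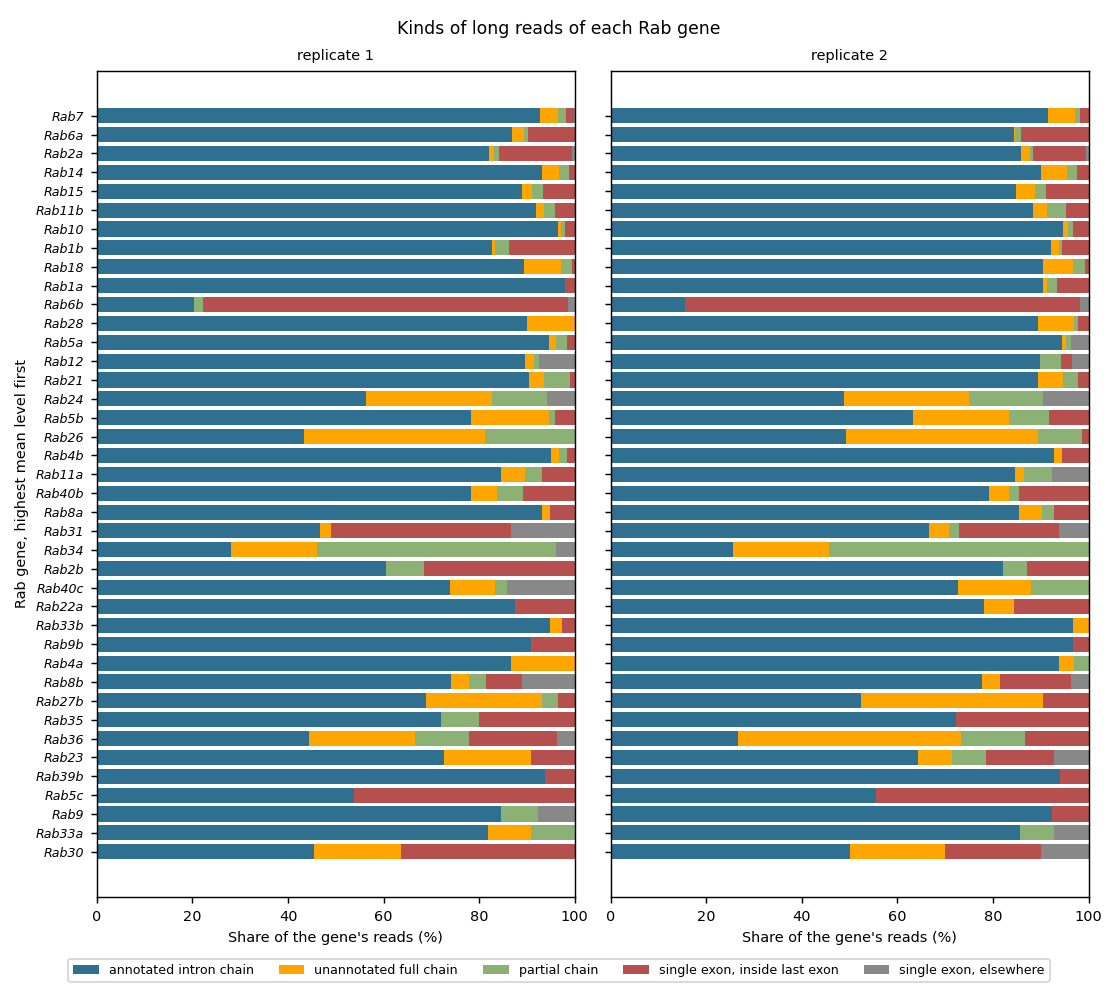
Share of reads (%) of each kind for the 40 Rab genes at 10 CPM or more, replicate 1 left and replicate 2 right, ordered by level. Annotated chains fill most bars, whereas Rab6b is filled mainly by single-exon reads inside the last exon (76.4% and 82.6%) and Rab34 by partial chains (50% and 54.3%).

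Other Rab genes held such reads at smaller shares. Of Rab5c reads, 46.2% in replicate 1 and 44.4% in replicate 2 were single-exon models in the last exon, on 13 and 18 reads. Rab31 had 37.8% and 20.8%, Rab2b 31.6% and 12.8%, and Rab35 20.0% and 27.8%. Among abundant members, Rab2a had 13.2% ± 2.98 and Rab6a 12% ± 3.05, while Rab10 had 2.63% ± 0.89 (SD, n = 2). Rab34, at chr11:78188430-78192193, differed in another way: 25 of its 50 reads in replicate 1 and 19 of 35 in replicate 2 covered only part of an annotated intron chain. Rab34 was added here after its values were seen.

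Full-length Rab transcripts were mostly of 1 isoform. Isoforms are chains of introns, and shares are of the reads that cover a full chain, for the 29 Rab genes that had 20 such reads or more in both libraries. The most abundant isoform held at least 90% in each library in 22 of 29 Rab genes, 75.9%, beside 32.8% of the 4819 genes with the same minimum of reads. Beyond that minimum the 2 sets were not matched for depth or number of exons. Its median share was 94.9% for the Rab genes and 84.2% for all 4819. In each of the 29 it was an annotated transcript. It held 99% ± 0.22 of the full-chain reads of Rab10 and 99.6% ± 0.57 of those of Rab1a, and all 30 and 29 of those of Rab9b. In each library, 3 of 29 Rab genes had at least 2 isoforms of 10% or more, 10.3%, beside 30.0% of the 4819. Those 3 were Rab24, Rab28 and Rab40c. In single libraries, where a share had to pass once only, the count was 8 of 33 with replicate 1 alone, beside 38.8% of 5436 genes, and 4 of 29 with replicate 2 alone, beside 38.2% of 5114. The share of the most abundant isoform differed between libraries in 0 of 29 Rab genes, beside 10 of 4819 genes, or 0.208%. This was Fisher's exact test of that isoform's reads against the rest, with Benjamini-Hochberg adjustment. At an unadjusted p under 0.05 in the same test the counts were 0 of 29 Rab genes and 176 of 4819 genes, or 3.65%. Where 1 isoform held all reads, as in Rab9b, the test could not find a difference. It had little power where that isoform held nearly all of them, so these counts do not show that shares were equal.

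Rab28 was made in 2 annotated forms with different ends of the coding sequence. Rab28-201 took 80 of 110 full-chain reads in replicate 1 and 92 of 128 in replicate 2, 72.3% ± 0.60, and Rab28-203 took 18 and 26, 18.3% ± 2.79 (SD, n = 2). Rab28-203 adds the 95-base exon printed above between exons of the other form, and 87 of its bases are annotated as coding, followed by the stop codon. Over all reads that spanned the position, 19 of 107 in replicate 1 and 28 of 126 in replicate 2 held the exon, 17.8% (exact 95% interval 11 to 26.3) and 22.2% (15.3 to 30.5). A further unannotated chain, with 5 and 3 reads, left out an 89-base coding exon at chr5:41698390-41698478.

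Rab24 had a second form that the annotation lacks. Rab24-201 took 49 of 72 full-chain reads in replicate 1 and 41 of 63 in replicate 2, 66.6% ± 2.10, and an unannotated chain of 7 exons took 17 in each library, 25.3% ± 2.39 (SD, n = 2). This chain kept the 191-base intron at chr13:55320554-55320744, which lies between the start and stop codons, and its last exon reached 957 bases farther than that of Rab24-201, to chr13:55318928, past the annotated end of the gene at 55319743. Over all full-chain reads, 22 in replicate 1 and 19 in replicate 2 kept the intron, 30.6% and 30.2%. The intron lies wholly within an annotated exon of Prelid1, a protein-coding gene on the opposite strand with 63 and 47 reads of its own. How strand was assigned to reads is not stated in the sources used here, so the share of this chain is uncertain where the 2 genes overlap.

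Rab40c was split between 2 annotated forms with the same coding sequence. Rab40c-201 took 20 of 35 full-chain reads in replicate 1 and 12 of 29 in replicate 2, 49.3% ± 11.1, and Rab40c-207 took 11 and 12, 36.4% ± 7.04 (SD, n = 2). They differ by a 102-base intron at chr17:25919550-25919651, before the start codon, that Rab40c-207 keeps. With so few reads the order of the 2 forms was not resolved in replicate 2, where each had 12 reads.

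**Figure D4:**
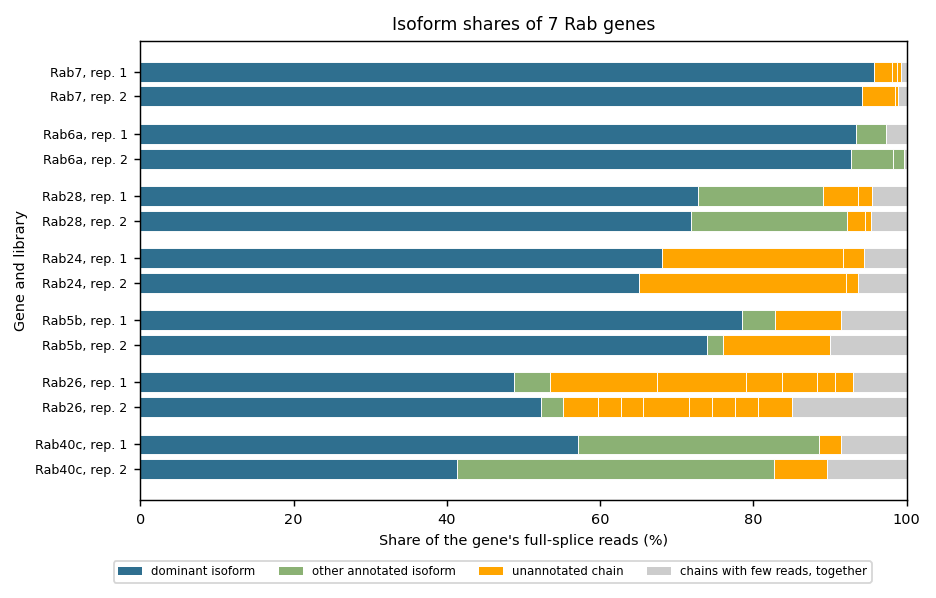
Share of full-chain reads (%) by isoform for 7 Rab genes, with replicate 1 above replicate 2 for each. Rab7 and Rab6a are filled by 1 isoform (94.9% and 93.1%), Rab28, Rab24 and Rab40c are split, and Rab26 is broken into many unannotated chains beside an annotated one of 50.5%.

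Whole introns were kept at 10% or more of full-chain reads in each library in 3 of 29 Rab genes, Rab26, Rab40c and Rab24, 10.3% beside 10.9% of the 4819 genes. This measure was added after the isoforms had been seen. Rab26 stood highest: 21 of 43 full-chain reads in replicate 1 and 24 of 67 in replicate 2 kept at least 1 intron of Rab26-201, 48.8% and 35.8%. The introns kept were short, with 16 and 18 reads over the 96-base intron at chr17:24529818-24529913 and 21 and 19 over the 270-base intron at chr17:24530121-24530390. The full-chain reads of Rab26 fell into 20 chains, 10 of them in both libraries. Rab26-201 itself took 21 and 35 reads, 50.5% ± 2.41 (SD, n = 2). The 3′ end of the annotated gene shares 267 exon bases with Traf7 on the same strand.

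In all, 3 unannotated chains had at least 5 reads in each library, those of Rab24, Rab7 and Rab5b. The chain of Rab7, with 10 reads in replicate 1 and 15 in replicate 2, or 3.38% ± 1.45, put an 87-base exon at chr6:88015632-88015718 into the untranslated part before the start codon. The chain of Rab5b, with 6 and 7 reads, or 11.3% ± 3.84, had a first exon that ran 157 bases farther, at chr10:128696029-128696185, also before the start codon. Rab5b-201 took 76.3% ± 3.23 of the full-chain reads of its gene (SD, n = 2 for each share). At 2 reads in each library the number of such chains was 14. Such chains are not counted over all genes here, so whether these numbers are high or low for the Rab genes is unknown.

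Rab6a was added after its values were seen, since its minor form changes a coding exon. Rab6a carries a pair of mutually exclusive coding exons of 106 bases, printed above, which in humans give the proteins known as Rab6A and Rab6A′. The exon of Rab6a-201 was in 320 of 335 spanning reads in replicate 1 and 274 of 291 in replicate 2, 94.8% ± 0.96, and that of Rab6a-202 in 13 and 16, 4.69% ± 1.14 (SD, n = 2). No read held both, and 2 reads in replicate 1 and 1 in replicate 2 held neither. The exons share 76 of 106 bases, or 71.7%. The Rab6b exon shares 83 of 106 bases with the Rab6a-201 exon and 76 with the Rab6a-202 exon.

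Genes that share exon bases with other annotated genes are less certain. Of the 47 Rab genes, 16 shared exon bases with another gene, 5 with one on the same strand and 12 with one on the opposite strand, and for 6 the other gene was protein-coding. Beside Rab24 with Prelid1 and Rab26 with Traf7, these were Rab6a with Mrpl48, Rab2b with Tox4, Rab5a with Pp2d1 and Rab4b with Gm21983. Mrpl48 had 50 reads in replicate 1 and 41 in replicate 2, Tox4 70 and 76, and Pp2d1 0 in each. Gm21983, which shares 1280 exon bases with Rab4b on the same strand, had 0 and 2. How many of all protein-coding genes share exon bases in this way is not counted here, so the counts describe the Rab genes alone.

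Genes for the proteins that run the Rab cycle were present as well. The lists were GDP dissociation, escort and prenylation (7 genes), exchange factors (36), GTPase-activating proteins (33), effectors (36) and kinases and phosphatases of Rabs (3). A read in each library was found for 6, 34, 31, 29 and 2 of these genes, and the medians over those were 42.7, 31.7, 38.1, 42.9 and 19.6 CPM. On the same condition the median was 53.7 CPM for the Rab genes and 24.2 CPM for all protein-coding genes. In each list 0 genes differed between the libraries by the rule used for the Rab genes. Gdi2, a GDP dissociation inhibitor, stood at 118 CPM, Rabac1, which binds prenylated Rabs, at 112, and Rabif, a chaperone of nucleotide-free Rabs, at 45.4 CPM. Rabggta and Rabggtb, the subunits of the enzyme that adds the lipid anchor, stood at 40.1 and 40 CPM, and the escort proteins Chm and Chml at 28.4 and 0.671 CPM.

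Among exchange factors, Sbf1, a DENN-domain protein without phosphatase activity, led with 314 ± 9.41 CPM. Dennd5a stood at 189 ± 0.29 CPM, Trappc9, a subunit of the TRAPP II complex, at 156 ± 6.89, and Madd, which acts on Rab3 and Rab27, at 134 ± 5.31 (SD, n = 2 for each). Of 36 exchange factors, 34 had a read in each library and Dennd2c had 0 in both. Among GTPase-activating proteins, Sgsm2 stood at 259, Tbc1d9b at 228, Evi5l at 128 and Tbc1d10b at 120 CPM, and 31 of 33 were found in each library, with Tbc1d8b and Tbc1d10c at 0. Of 36 effectors, 29 were found in each library. Myo5b, a motor that binds Rab11, stood at 175 CPM, Rilpl1, which binds phosphorylated Rab8 and Rab10, at 123, Osbpl1a, an effector of Rab7, at 117, and Rab11fip3, of Rab11, at 114 CPM. Rilp, the classical Rab7 adaptor for dynein, had 0 reads in both libraries, as had Sytl1, Sytl3 and Sytl5 of the family that binds Rab27. Ppm1h, the phosphatase that removes LRRK2 phosphates from Rabs, had 18 reads in replicate 1 and 31 in replicate 2, Lrrk2 had 7 and 5, and Lrrk1, a kinase of Rab7, had 1 and 0.

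**Figure D5:**
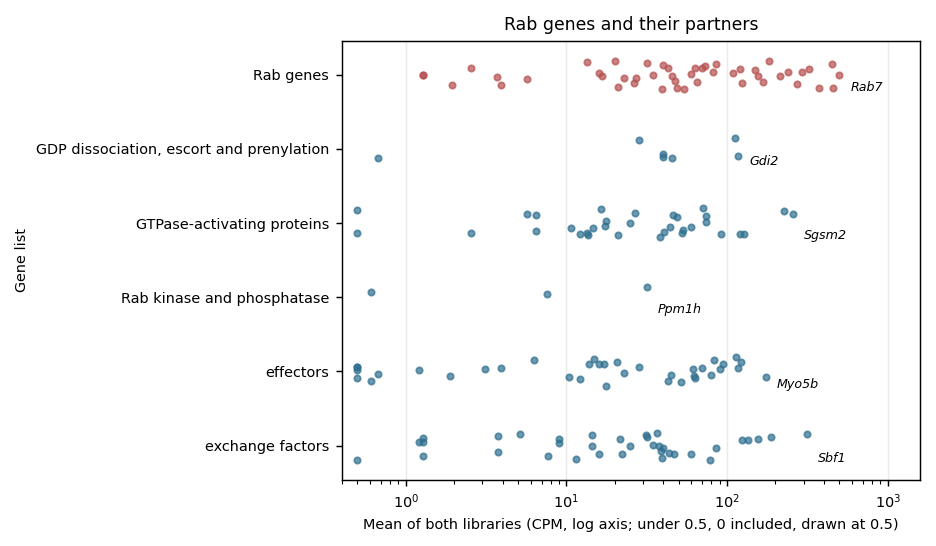
Mean level in CPM (log axis) of each Rab gene and of each gene in the 5 lists of Rab partners, one point a gene, with the leading gene of each row named. Rab7 is the highest Rab gene plotted, at 502 CPM, and Sbf1 leads the exchange factors at 314 CPM.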

How the data were processed

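The values used are the deposited counts, whole numbers of long reads for each transcript model that the authors did not normalize. Per the text files deposited beside them they come from alignments to mm10 with GENCODE M21, and per the file headers the structures were made with TALON, for each library apart. Other deposited values, used as they are, give each model's exons and length. Platform, aligner and versions are not stated in the sources used here.

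Counts were summed by gene identifier over all models of a gene. Spike-in reads (9644 and 6799 of 836240 and 752291 reads) were left out of the totals. Models were joined between libraries by intron chain. Genes with at least 20 reads together were tested between libraries with two-sided exact binomial tests, with a 2-fold limit and a Benjamini-Hochberg adjusted p under 0.05, and shares with two-sided Fisher's exact tests, both checked on simulated counts. These tests and the exact Clopper-Pearson 95% intervals cover counting error only, and no variation between animals or preparations. No molecular identifiers show which reads are separate molecules, so even the counting error may be understated. A count of 0 is given the limit of 3 counts. The rule for names takes each Rab gene, with full values at a mean of 100 CPM or more, at the ends of each role group and for paralogs, and the 4 leading genes of each partner list with those at 0; further names are said to be chosen later. Of the partner lists and the exon-use counts, some items are not reported here. The members and lists were chosen with earlier results of these data known. Features of the proteins were planned and are not analysed here; coding-sequence identity from GENCODE transcripts, aligned globally, stands in. Alternatives changed the reads counted, minimums, fold, share and scaling (TMM of edgeR 4.0.16, size factors of DESeq2 1.42.0). Python 3.11.15, numpy 2.4.6, scipy 1.17.1, pandas 2.3.3, biopython 1.88, matplotlib 3.10.9 and R 4.3.3 were used.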

Additional observations from a re-analysis of the deposited data

Results flagged for a closer look

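Reads of unannotated models on the strand opposite to a Rab gene are outside the levels given above. They lay over 26 of 47 Rab genes in each library, 55.3%, beside 49.1% of the 13066 protein-coding genes, and came to 264 reads in replicate 1 and 245 in replicate 2. At least 20 in each library were found over 4 Rab genes. The share of all protein-coding genes with at least 20 is not given here. Rab30 had 49 antisense reads in replicate 1 and 39 in replicate 2, against 11 and 10 reads in its own direction. Of these, 44 and 34 belonged to a model at chr7:92839875-92844535, inside the last exon of Rab30, which is the longest last exon of the members at 8847 bases. Rab28 had 25 and 21 antisense reads, against 110 and 132 in its own direction. Rab1a had 21 and 29, against 150 and 137. Rab31 had 21 and 27, against 45 and 48, of which 19 and 23 belonged to the largest model of each library. The source of these reads was not tested.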

How the results depend on the processing

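No paired analysis was possible because there is only 1 group, with 2 libraries. The median Rab level, 53.7 CPM, was 50.4 CPM without genomic models, 60.0 CPM over full-chain models alone, and 56.1 CPM without models under 200 bases, each scaled to the reads kept; it was 53.2 to 53.8 CPM under TMM, median-of-ratios scaling or spike-ins kept in the total, and 52.3 to 54.4 CPM in single libraries. Some Rab genes at 10 CPM or more moved by over 1.5 times. Over full-chain models alone these were Rab6b (46.1 CPM), downward, and Rab28 (233 CPM), Rab33b (64.9 CPM) and Rab4a (59.5 CPM), upward. Scaling to fewer reads raises any gene that keeps its reads: Rab28 kept 110 of 110 in replicate 1 and 128 of 132 in replicate 2. Rab7 (742 CPM) and Rab14 (552 CPM) rose too, by less than 1.5 times, and Rab34 fell to 37.6 CPM. In this setting 41 Rab genes moved by at least the SD of their libraries, and 6 did not. Without genomic models, Rab5c (12 CPM) and Rab6b (111 CPM) moved by over 1.5 times, both downward. The number of Rab genes differing between libraries was 1, Rab6b, without genomic models, beside 0.710% of all genes tested, and 0 under the other 8 alternatives, beside 0.185% to 0.574%. The number with more than 1 isoform was 5 at a share of 5%, beside 44.7% of all genes tested, 4 to 8 in single libraries, beside 38.2% to 38.8%, and 2 to 4 under the others, beside 13.0% to 30.0%. Isoform shares differed in 0 Rab genes under all 5 alternatives, among them a test of every isoform of 10% or more. Unannotated chains numbered 14 at 2 reads in each library and 2 at 10. Depth is a limit: 18 Rab genes had too few full-chain reads for a share, and 7 had too few reads for a test between libraries.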

Other observations

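Across the 47 Rab genes, the length of the main transcript and the mean level were weakly related (Spearman's rho = 0.18). The share of single-exon reads inside the last exon was related to the length of that exon over the 40 Rab genes with at least 20 reads (rho = 0.43). These points share libraries and depth, so both values are descriptions. Rab6b, with the highest share of such reads, ranked at number 7 of the members by last exon length. Rab30, at 8847 bases and number 1, had 4 such reads of 11 in replicate 1 and 2 of 10 in replicate 2. Rab22a, at 6322 bases and number 2, had 5 of 40 in replicate 1 and 5 of 32 in replicate 2.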
